A study of Mus musculus with 3 samples.

Results

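The inhibitory receptors of myeloid cells examined here are 10 genes: Sirpa, Lair1, Cd200r1, Siglec1, Siglece, Cd33, Clec12a, Cd300a, Cd300lf and Pilra. They were chosen by name, by a rule that uses no measured value but with earlier results of these data known, out of 20660 genes that had a named probe on the array. All 10 had at least 1 probe, 16 probes in total, and all 10 passed the filter on dim probes, as 13181 genes did. The RNA came from bone marrow-derived macrophages of C57BL/6J mice, grown from marrow of femurs and tibiae in medium with 30% conditioned medium of L929 cells, a mouse fibroblast line that supplies the growth factor CSF-1. The cells were then held in 0.1% serum. The untreated group received nothing further, and the treated group received adiponectin, a hormone of fat cells, at 12 µg/ml for 18 h (another protocol field gives the dose in mg/ml). Each of 3 arrays compared 1 treated with 1 untreated RNA sample in different dyes, which gives 3 ratios from 6 RNA samples. Treated RNA was labelled with Cy3 on replicates 1 and 3 and with Cy5 on replicate 2. The labels call the arrays biological replicates but do not say whether each came from a separate animal. The p-values thus refer to these samples, and the spread they use was estimated in part from all tested genes.

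Inhibitory receptors set the threshold at which a macrophage responds to activating signals. Most carry in their cytoplasmic tail a short tyrosine motif, the ITIM, which recruits the phosphatases SHP-1 and SHP-2 (genes Ptpn6 and Ptpn11) or the lipid phosphatase SHIP-1 (Inpp5d) once it is phosphorylated by a Src family kinase. Many have close relatives with a short tail that pair instead with the activating adaptors DAP12 (Tyrobp) or the Fc receptor gamma chain (Fcer1g), so that 1 family can hold receptors of opposite function. Siglecs are a family of receptors that bind sialic acid, the sugar at the ends of many cell surface glycans. The name does not describe every member: Siglec1, also called sialoadhesin or CD169, is an adhesion receptor that has no ITIM, and Cd200r1 signals through the adaptor Dok2 rather than through an ITIM.

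The arrays lay on 1 slide with 1 scan time, and their number limits the precision of every value. Treated channels had 43.9% to 47.5% of probes well above background, against 53.4% to 54.3% in untreated channels. Values are log2 ratios of treated over untreated after loess normalization within each array, each given with the moderated standard error (SE) of limma over n = 3 arrays, and calls were made where the adjusted p was under 0.05. On this scale the median of all tested genes was -0.17. Centring each array on its median in place of loess moved it to -1.03, and limma then called none of the 13181 genes, although 5317 had an unadjusted p under 0.05. Of 10 macrophage markers, all 9 that were measured stood well above background in every channel. Among them 7 fell and 2 rose, with a median of -1.0, and the log2 of their summed intensity was 18.25 to 18.37 in untreated and 17.26 to 17.56 in treated samples. In such bulk RNA, fewer cells of a type and less RNA per cell cannot be told apart. Among the T and B cell markers Cd3d, Cd3g, Cd8a, Cd79a and Ms4a1 were too dim to be measured. The corresponding sums for neutrophil markers, 9 of 11 measured, were 14.71 to 14.92 in untreated and 14.74 to 15.38 in treated samples, with 3 called higher and 4 lower. For dendritic cell markers, 4 of 8 measured, they were 10.01 to 10.09 and 14.14 to 14.21. Among these 4, Ccr7 (log2 ratio 4.97) and Zbtb46 (1.51) were called higher, while Flt3 (0.08) and Itgax (0.17) were not called. The dendritic cell markers Cd209a, Xcr1 and Clec9a were too dim to be measured. For mast cell and basophil markers, 3 of 8 measured, the sums were 10.04 to 10.29 and 11.91 to 12.03. Of these 3, Hdc (2.54) and Tpsb2 (1.05) were called higher and Kit (-0.79) lower, while Mcpt8, Cpa3, Fcer1a, Ms4a2 and Mcpt4 were too dim to be measured. For T cell markers, 5 of 8 measured, the sums were 12.76 to 12.82 and 11.63 to 11.76, although the median log2 ratio was 0.09. Among these markers 2 were called higher (Cd3e at 0.96, Lck at 0.89) and 1 lower (Cd28 at -3.05). Sums were lower in treated samples for markers of B cells (3 of 8, 10.41 to 10.50 against 9.03 to 9.16, with 1 called lower, Cd79b) and eosinophils (5 of 7, 9.03 to 9.10 against 8.62 to 8.76, with 2 called lower), and higher for fibroblasts (5 of 8, 8.96 to 9.05 against 9.30 to 9.46, with 3 called higher). No eosinophil marker was well above background in all 3 treated channels. The 2 called lower, Prg2 and Ccr3, were so in 0 and 1 treated channels. What part the shifts of these marker sums have in the receptor values was not tested.

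Of the 10 receptor genes, 6 fell, 3 rose and Cd300a did not pass. Calls in either direction were made for 70.6% of all tested genes, falls for 46.1% and rises for 24.5%, so that a call as such was frequent on these arrays. The treated and untreated levels did not overlap for 6 members that fell and 2 that rose, against 48.7% and 26.8% of all genes. The falls reached 2-fold or more for 4 members (Lair1, Siglec1, Sirpa and Cd200r1), against 12.6% of all genes (1664). That count was 3 after centring each array on the median of tested genes (Cd200r1 at -0.95), beside 1176 of all genes. It was 5 with the ratios that the scanner software computed (Clec12a at -1.33), beside 2790 of all genes. A rise of 2-fold or more was seen for 1 member, Pilra, against 6.80% of all genes. The median of the members was -0.42. All members but Cd300a had the same sign on all 3 arrays. The rises of Siglece and Cd33 were small, at 1.17-fold and 1.16-fold, and with median centring both had a negative sign.

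**Figure D1:**
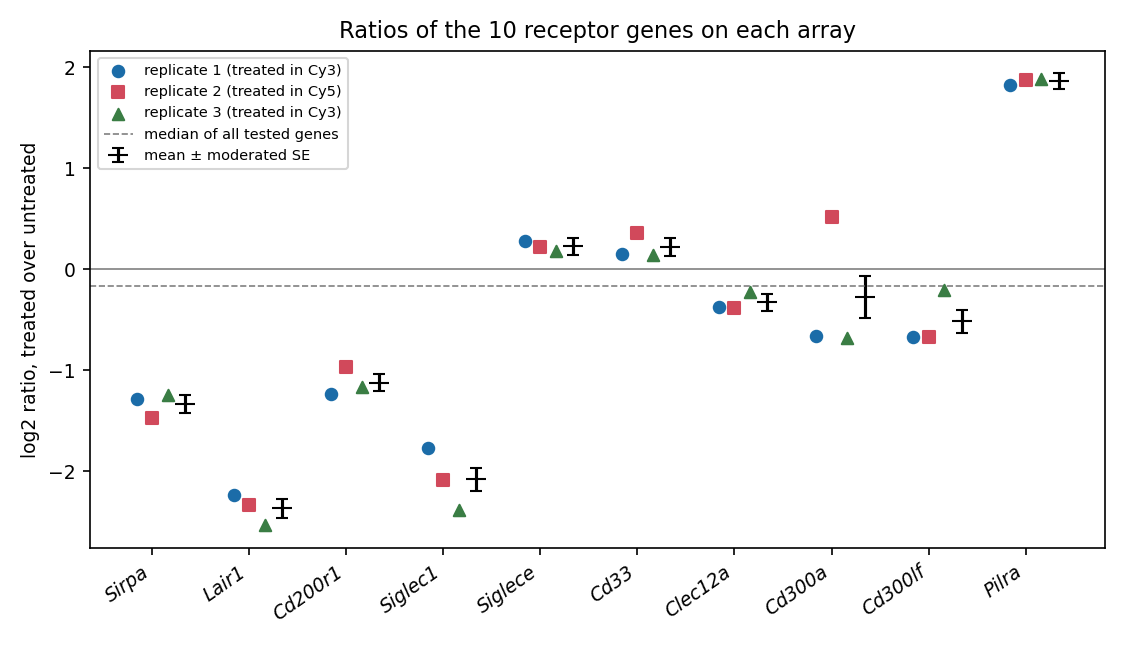
Log2 ratios of treated over untreated for the 10 receptor genes on each array (y axis), with the mean and moderated SE beside them. The 3 points of Pilra lie between 1.82 and 1.88, those of Lair1 between -2.54 and -2.23, and Cd300a is at 0.52 on replicate 2 against -0.66 and -0.68 on replicates 1 and 3; with median centring in place of loess Siglece and Cd33 turn to -0.96 and -0.82.

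Lair1 encodes LAIR-1, an ITIM receptor whose ligands are collagens and proteins with collagen-like tails, among them complement C1q. It fell more than any other member. Its normalized log2 intensity was 11.89, 11.85 and 11.78 in the untreated channels and 9.66, 9.51 and 9.24 in the treated channels of replicates 1, 2 and 3. All treated values lay below all untreated ones. The log2 change was -2.37 ± 0.091 (limma adjusted p = 2.11e-07, lower on 3 of 3 arrays), which left 19.4% of the untreated level, and 72 of the 13181 genes had a lower value. A second, dimmer probe of Lair1, designed on another transcript, gave -0.65, -0.94 and -0.84. In the ratio that the scanner software computed, the dimmer probe was at -1.35 and the brighter one at -2.44, and the mean over both probes after loess was -1.59. Both probes thus lay below 0 on every array, with different sizes.

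Sirpa encodes SIRP-alpha, the ITIM receptor that reads CD47, a surface protein displayed by most cells. The untreated channels were at 14.92, 15.19 and 14.82 and the treated ones at 13.64, 13.72 and 13.58, so the groups did not overlap. Its log2 change was -1.33 ± 0.087 (limma adjusted p = 2.73e-06, lower on 3 of 3 arrays), or 39.7% of the untreated level. The sole probe of this gene kept its call in 13 of 14 alternative settings, the exception being median centring (-2.39, adjusted p = 0.0773).

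Cd200r1, the receptor of the membrane protein CD200, also fell. Untreated log2 intensities of 10.80, 10.80 and 10.84 stood against treated ones of 9.57, 9.84 and 9.67, with no overlap. The log2 change was -1.12 ± 0.089 (limma adjusted p = 8.28e-06, lower on 3 of 3 arrays), which corresponds to 46.0% of the untreated level.

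The 3 Siglecs among the members differed in direction. Siglec1, the sialic acid-binding adhesion receptor of macrophages, was at 12.50, 12.71 and 12.49 in untreated and at 10.73, 10.62 and 10.11 in treated samples. Every treated value was below every untreated one. Its log2 change of -2.08 ± 0.12 (limma adjusted p = 1.31e-06, lower on 3 of 3 arrays) left 23.6% of the untreated level, and 140 of all tested genes lay lower. The standard deviation over the arrays was 0.31, since the ratio was -1.77 on replicate 1 and -2.38 on replicate 3. The dimmer probe of Siglec1 gave -0.89, -0.89 and -0.73 and the mean over both probes was -1.46. The scanner's own ratios of these 2 probes were -2.13 and -1.38.

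Siglece encodes Siglec-E, an ITIM-bearing Siglec of mouse neutrophils and macrophages. Untreated channels read 10.647, 10.701 and 10.778 and treated channels 10.93, 10.92 and 10.96. The groups did not overlap, but the gap between them was narrow. The rise of 0.23 ± 0.080 (limma adjusted p = 0.0326, higher on 3 of 3 arrays) turned to -0.96 with median centring, where it was 0.07 above the median gene. It was 0.36 after normexp without an added offset. The call was lost without replicate 1 (adjusted p = 0.183) and without replicate 3 (0.0775).

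Cd33 encodes another sialic acid-binding receptor of the same subfamily, and whether the mouse protein inhibits was not examined here. Its untreated log2 intensities were 8.63, 8.69 and 8.87 and its treated ones 8.79, 9.05 and 9.01, so that the groups overlapped, and each treated value exceeded the untreated value on its own array. The log2 change was 0.22 ± 0.087 (limma adjusted p = 0.0497, higher on 3 of 3 arrays), and it turned to -0.82 with median centring and was 0.47 as the scanner reported it. Leaving out any 1 array ended this call, with adjusted p of 0.116, 0.166 and 0.081 without replicates 1, 2 and 3. A required reading above background in all 6 channels (0.0554) and array weights (0.061) ended it too.

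**Figure D2:**
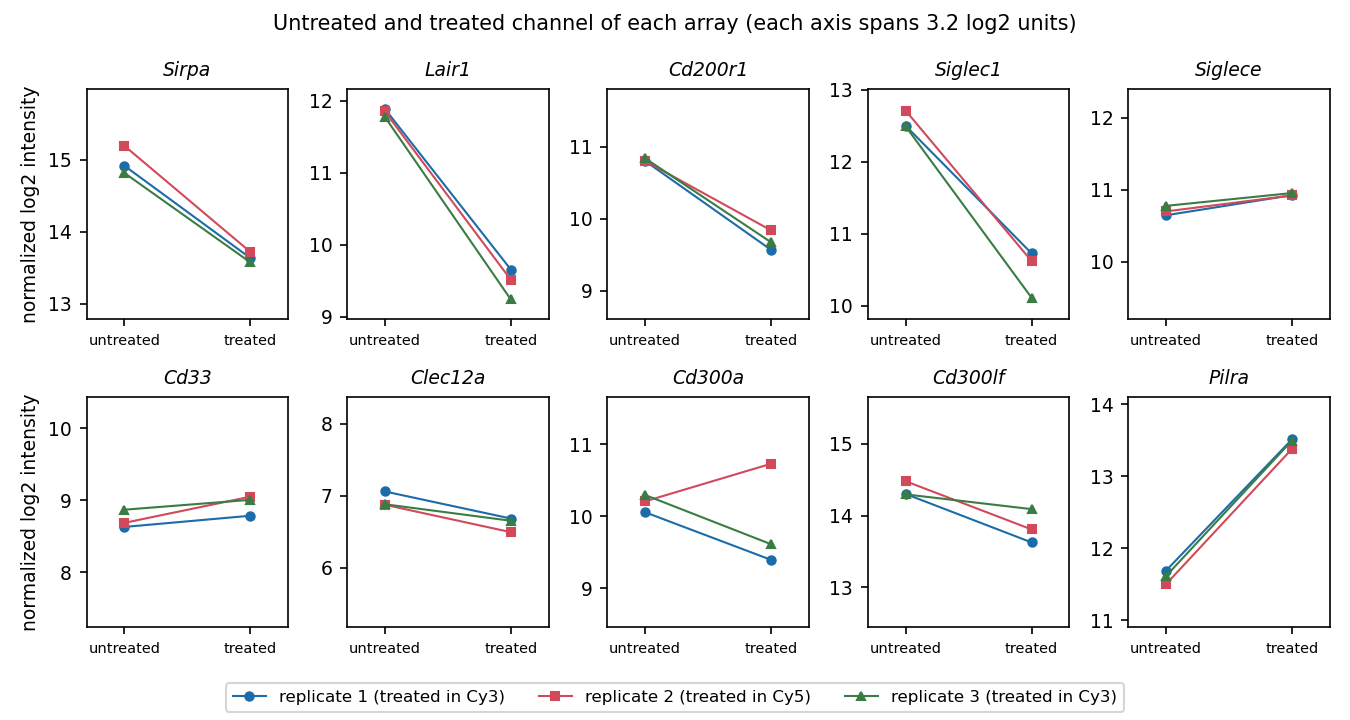
Normalized log2 intensity (y axis, spanning 3.2 units in every panel) of each receptor gene in the untreated and treated channel of each array, joined by lines. The lines of Lair1, Siglec1, Sirpa and Cd200r1 fall and those of Pilra rise on all 3 arrays, while Cd300a rises from 10.20 to 10.73 on replicate 2 and falls on the other arrays; levels are not comparable between panels, and with median centring in place of loess Siglece and Cd33 turn lower.

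Clec12a encodes an ITIM-bearing C-type lectin that binds uric acid crystals released by dying cells. It was the dimmest member, at 7.06, 6.88 and 6.88 in untreated and 6.69, 6.50 and 6.66 in treated channels, and on replicate 3 the treated channel was not well above background. The groups did not overlap. The log2 change was -0.33 ± 0.083 (limma adjusted p = 0.00682, lower on 3 of 3 arrays). This size depended on the background correction, at -0.67 after normexp without an added offset and -1.33 as the scanner reported it. The call ended without replicate 1 (adjusted p = 0.0569) and after centring on the median of tested genes (-0.16, adjusted p = 0.127).

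Cd300a and Cd300lf encode ITIM receptors that recognize phosphatidylserine and other lipids exposed on membranes. Cd300a read 10.05, 10.20 and 10.29 in untreated and 9.39, 10.73 and 9.61 in treated samples. The treated sample of replicate 2 was the highest of all 6 and the other treated samples were the lowest, so the sign of the ratio followed the dye orientation. Over the 3 arrays the log2 change was -0.27 ± 0.21 (limma adjusted p = 0.276, 95% interval -0.76 to 0.21), which is not called. Without replicate 2 it was -0.67 (adjusted p = 0.000283), with array weights -0.44 (adjusted p = 0.0453), and with a dye term -0.07.

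Cd300lf read 14.30, 14.48 and 14.29 in untreated and 13.63, 13.81 and 14.09 in treated channels of its brightest probe. All treated values were below the untreated ones. Its log2 change was -0.52 ± 0.11 (limma adjusted p = 0.00286, lower on 3 of 3 arrays), with -0.67 on replicates 1 and 2 and -0.21 on replicate 3. A dimmer probe gave -0.63, -0.38 and -0.22. The dimmest of the 3 probes had no common sign, at -0.00, -0.24 and 0.50, and the mean over the probes was -0.28.

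Pilra encodes an ITIM receptor that binds certain sialylated O-glycoproteins, and it rose on every array. Untreated channels were at 11.69, 11.50 and 11.61 and treated channels at 13.51, 13.38 and 13.50. Every treated value was above every untreated one. The rise was 1.86 ± 0.080 (limma adjusted p = 3.38e-07, higher on 3 of 3 arrays), or 3.64-fold, and 297 of the 13181 genes had a higher value. Its other probes gave 1.92, 1.73 and 1.88 and 1.25, 0.94 and 1.12 on replicates 1, 2 and 3. The direction held over all 3 probes and in the alternative settings that were run, with 0.72 ± 0.58 under median centring, which did not pass.

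**Figure D3:**
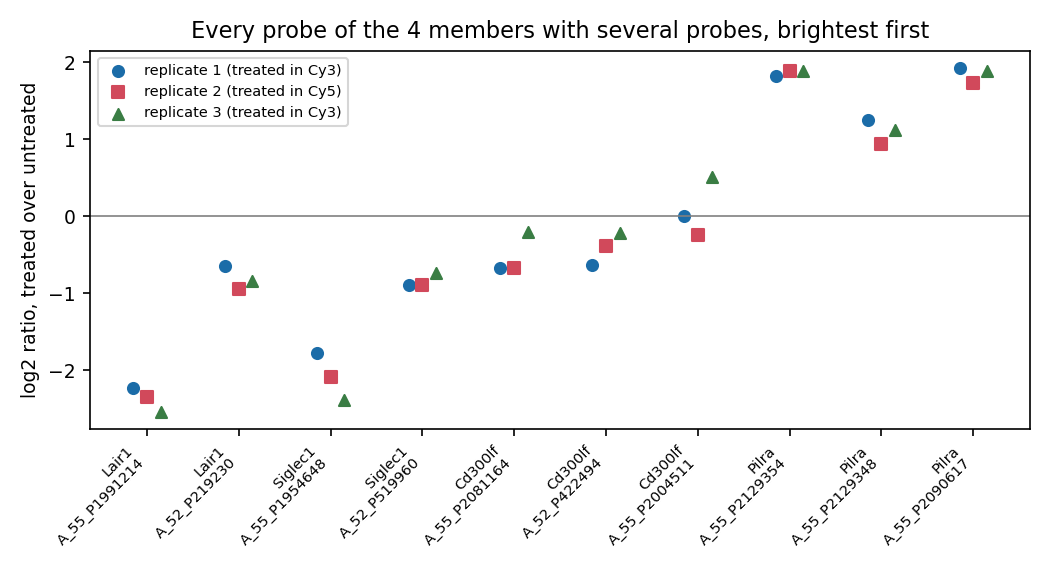
Log2 ratio of treated over untreated (y axis) on each array for every probe of the 4 members with several probes, from the brightest to the dimmest probe of a gene. The 2 probes of Lair1 average -2.37 and -0.81, those of Siglec1 -2.08 and -0.84, the 3 of Cd300lf range from -0.52 to 0.09 and the 3 of Pilra from 1.10 to 1.86.

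RefSeq promoter sequences (build GRCm38.p6) were at hand for 7 members: Pilra, Clec12a, Lair1, Cd33, Siglece, Cd300a and Cd300lf. Shown here are the 250 bases before the annotated start of Lair1, the member with the largest fall, and of Pilra, the member with the largest rise, each read along its gene. Lair1 is on the minus strand at chr7:4063205-4063454 and Pilra on the minus strand at chr5:137836279-137836528. Capitals mark the letters of the core motif of PU.1, the factor that drives myeloid genes, on either strand.
Lair1: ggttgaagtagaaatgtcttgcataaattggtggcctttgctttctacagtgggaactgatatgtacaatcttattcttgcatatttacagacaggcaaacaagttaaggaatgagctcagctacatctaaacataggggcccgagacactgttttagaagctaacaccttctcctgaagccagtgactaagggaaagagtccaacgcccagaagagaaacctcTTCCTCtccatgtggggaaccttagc
Pilra: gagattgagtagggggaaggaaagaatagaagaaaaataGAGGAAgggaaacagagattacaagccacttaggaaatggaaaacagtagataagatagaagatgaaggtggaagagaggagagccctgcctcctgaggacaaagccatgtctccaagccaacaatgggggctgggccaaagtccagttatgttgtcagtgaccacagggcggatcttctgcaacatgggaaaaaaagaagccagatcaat
The core GAGGAA, searched on both strands, occurred in all 7 windows, in Lair1 at position -26 and in Pilra at -211 from the start, and in 23.1% of 27025 promoter windows of the same length.

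Of 5 further motifs searched on both strands in the 7 windows, none of which overlapped another motif there, a C/EBP motif (TTGCNNAA) occurred in Pilra, Clec12a, Lair1 and Cd300a and in 9.55% of all windows. An interferon response element, written as 2 GAAA repeats with any 2 bases between them, occurred in Pilra alone among the 7 and in 3.04% of all windows, and the AP-1 motif TGANTCA in Clec12a alone and in 6.87%. An NF-kB motif, GGGA and TCC with any 3 bases between them (3.82% of all windows), and the STAT motif TTCNNNGAA (7.18%) had no match in these 7 windows. Such matches describe letters in a window and are not measured binding.

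The families of the members include receptors with the opposite function. Both measured SIRP-beta genes, which encode DAP12-coupled relatives of SIRP-alpha, fell as Sirpa did. Sirpb1a was at -1.86 ± 0.082 and Sirpb1b at -1.90 ± 0.10 (limma adjusted p = 3.81e-07 and 8.98e-07). Genes of this family are closely related in sequence, and whether the probes tell them apart was not tested. The activating CD200 receptor gene Cd200r4 fell by 0.70 ± 0.084 on the log2 scale, and Cd200r3 was at -0.22 ± 0.084 (adjusted p = 0.0455). In treated cells Cd200r3 was not well above background on any array, and on the loess scale it was at least 1.07-fold lower there. After centring on the tested genes it was at -0.05 (limma adjusted p = 0.631, not called), so no minimum fall is established. The scanner's own ratio was -1.76, and the call was also lost with a dye term and without replicate 1 or replicate 3.

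The CD300 genes, which lie in 1 cluster, moved in both directions. The DAP12-coupled receptor gene Cd300lb fell by 2.80 ± 0.084 on the log2 scale, with -2.71, -2.78 and -2.90 on the 3 arrays. Cd300ld (-1.92 ± 0.10) and Cd300c2 (-1.04 ± 0.089) fell as well. Cd300e, an activating member of the family, rose by 1.07 ± 0.12, a direction that median centring turned (-0.11). The 3 activating members that fell had values below those of Cd300lf (-0.52) and Cd300a (-0.27), and the differences between genes were not tested.

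The measured PILR genes rose together. Pilrb1 and Pilrb2, the activating DAP12-coupled counterparts of Pilra, rose by 1.52 ± 0.13 and 1.64 ± 0.081 (limma adjusted p = 1.07e-05 and 6.67e-07, higher on 3 of 3 arrays each). A dimmer probe of Pilrb2, well above background in 3 of 6 readings, gave -0.87, and the mean over its 2 probes was 0.39. The sequences of these genes are closely related, and signal shared between their probes was not tested.

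Among receptors related to LAIR-1, the activating receptor gene Pira2 fell by 2.29 ± 0.12 on the log2 scale, with -0.82 for its dimmer probe, and its inhibitory counterpart Pirb fell by 0.67 ± 0.081. The Pira and Pirb genes are near-identical copies, so the probes may not separate them. Tarm1, an activating receptor coupled to the Fc receptor gamma chain, rose by 3.14 ± 0.094. Of the Siglecs outside the members, Cd22 fell by 0.30 ± 0.088 on the log2 scale (-0.13 and not called after centring on the tested genes). Siglecf (-0.10), Siglecg (0.16) and Siglech (0.24) did not pass. Siglecg and Siglech were called higher in some settings, among them centring on the tested genes (0.33 and 0.41). A dimmer probe of Siglech gave -0.21. The scanner's own ratios were -0.42 for Siglecf and 0.62 for Siglecg. Among C-type lectins, Clec4e, the receptor Mincle for mycobacterial glycolipid, rose by 3.05 ± 0.14.

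**Figure D4:**
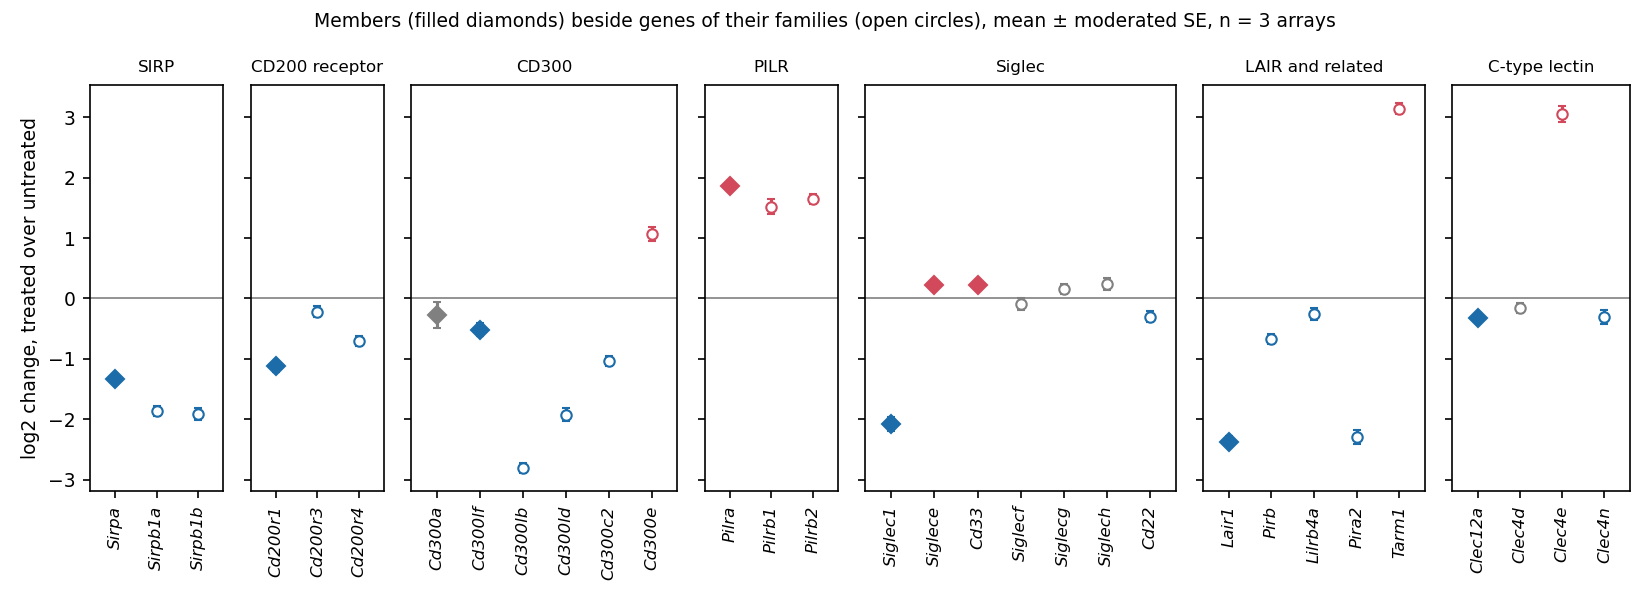
Log2 change of treated over untreated (y axis, mean ± moderated SE, n = 3 arrays) for the members (filled diamonds) and genes of their families (open circles); red marks genes called higher, blue called lower and grey not called in limma. The 3 measured SIRP genes are called lower and the 3 PILR genes higher, and when median centring replaces loess the signs of Siglece, Cd33, Siglech and Cd300e turn negative; after centring on the tested genes Clec4d and Siglecf turn to 0.01 and 0.08.

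Of 15 measured other inhibitory receptors (22 listed), 1 rose and 6 fell, with a median of 0.07. After centring on the tested genes the calls were 7 rises and 3 falls. Fcgr2b, the inhibitory Fc receptor, rose by 2.15 ± 0.11 (limma adjusted p = 7.76e-07), with a positive sign on all 3 arrays. Havcr2, which encodes the checkpoint receptor TIM-3 and has no ITIM, fell by 1.95 ± 0.084 on the log2 scale, was well above background in 2 of 3 treated channels, and was at -2.96 after normexp without an added offset and -3.51 as the scanner reported it. Klra2 (-0.44) and Vsir (-0.41), the checkpoint gene of VISTA, were called lower but lost the call in some settings. Among these were leaving out replicate 1 for Klra2 and replicate 2 for Vsir. A dimmer probe of Vsir, well above background in all 6 readings, gave -0.65, -1.25 and -0.78, and the mean over both probes was -0.65. Milr1, an ITIM receptor of mast cells, was at -0.29, 0.85 and -0.20 on replicates 1, 2 and 3, with the array of the other dye orientation apart as for Cd300a, and was not called (its dimmer probes gave 0.65 and 0.04).

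Of 27 measured activating partner receptors and adaptors (31 listed), 8 rose and 14 fell, and the list median was -0.22. Tyrobp, the DAP12 adaptor, fell by 1.17 ± 0.093 on the log2 scale (limma adjusted p = 8.84e-06, lower on 3 of 3 arrays). Fcer1g, the Fc receptor gamma chain, was at -0.11 ± 0.10 (adjusted p = 0.384, not called). The lipid-sensing receptor gene Trem2 (-2.10 ± 0.095) and the high-affinity Fc receptor gene Fcgr1 (-2.05 ± 0.094) fell, whereas Trem3 rose by 2.43 ± 0.11, or 4.34 in the scanner's own ratio.

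Of 23 measured phosphatases, kinases and adaptors that act below the receptors (24 listed), 3 rose and 14 fell, and the list median was -0.62; after centring on the tested genes 7 rose. The SHIP-1 gene Inpp5d fell by 1.61 ± 0.087 on the log2 scale, Ptpn11 (SHP-2) by 0.80 ± 0.10 and Ptpn6 (SHP-1) by 0.69 ± 0.098, each on 3 of 3 arrays, with limma adjusted p of at most 0.000263. Dok2, the adaptor of the CD200 receptor, fell by 2.45 ± 0.084 on the log2 scale, and Rasa1, the Ras inhibitor that binds Dok proteins, by 1.08 ± 0.090, with a scanner ratio of -1.95. The phospholipase gene Plcg2 was at -1.85 ± 0.098 and the ubiquitin ligase gene Cblb at -1.53 ± 0.083, with -0.19 for the dimmer probe of Cblb. The Src family kinase genes moved in both directions. Lyn fell by 0.41 ± 0.085 on the log2 scale and lost its call after normexp without an added offset (-0.30). Src, well above background in 1 of 3 untreated channels, rose by 0.75 ± 0.083. The size for Src was 1.79 after normexp without an added offset and 2.69 as the scanner reported it. Dok1 rose by 0.53 ± 0.090 and was at -0.60 with median centring, and Syk, the kinase of the activating adaptors, was not called (0.10 ± 0.085).

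Of 15 measured ligands and sialylated partners of the receptors (20 listed), 5 rose and 7 fell, and the list median was -0.05. Cd200, the ligand of CD200R1, rose by 2.67 ± 0.13 (limma adjusted p = 6.61e-07, higher on 3 of 3 arrays), or 6.37-fold, while its receptor gene fell to 46.0%. Cd47, the ligand of SIRP-alpha, fell by 0.58 ± 0.11 on the log2 scale, and its other probe gave -0.55. The C1q genes C1qa (-1.38 ± 0.16), C1qb (-1.02 ± 0.13) and C1qc (-1.50 ± 0.091), whose product binds LAIR-1, fell, while the collagen genes Col1a1, Col4a1 and Col17a1 were too dim to be measured. Col4a2 rose by 0.73 ± 0.10, and by 2.35 as the scanner reported it. Pianp, a glycoprotein ligand of PILR-alpha, fell by 0.96 ± 0.097 on the log2 scale, with a scanner ratio of -1.60. Thbs1, the gene of the CD47-binding matrix protein thrombospondin-1, was at -1.51 ± 0.082. Cd24a, a sialylated surface glycoprotein, rose by 2.28 ± 0.094, and the brightest of 4 probes of the glycoprotein gene Cd44 gave 1.39 ± 0.097, another -1.53 and their mean 0.01.

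Of 21 measured genes of sialic acid synthesis, transfer and removal (25 listed), 7 rose and 10 fell, with a median of -0.10. St3gal3, a transferase that adds sialic acid in alpha-2,3 linkage, rose by 3.48 ± 0.10 (limma adjusted p = 5.62e-08), or 11.2-fold. St3gal5 rose by 1.29 ± 0.079, and St3gal1 by 0.87 ± 0.095, with -0.26 under median centring and 3.00 for its dimmer probe. St6gal1, which adds the alpha-2,6 linkage, was at -2.76 ± 0.10 with a probe that was well above background in 1 of 3 treated channels and had a scanner ratio of -5.16. The other probe of St6gal1 gave 0.62 and represented the gene when readings above background were required in all 6 channels, so its direction depended on the probe. Cmas, which activates sialic acid for transfer, fell by 1.35 ± 0.082 on the log2 scale, St3gal6 by 1.46 ± 0.090 and the sialic acid lyase gene Npl by 1.24 ± 0.088. The latter pair was well above background in 2 of 3 treated channels, and normexp without an added offset gave -2.42 for St3gal6 and -2.20 for Npl, against -3.09 and -2.56 as the scanner reported them. Neu1, the lysosomal sialidase, rose by 0.53 ± 0.083 and was at -0.52 with median centring.

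**Figure D5:**
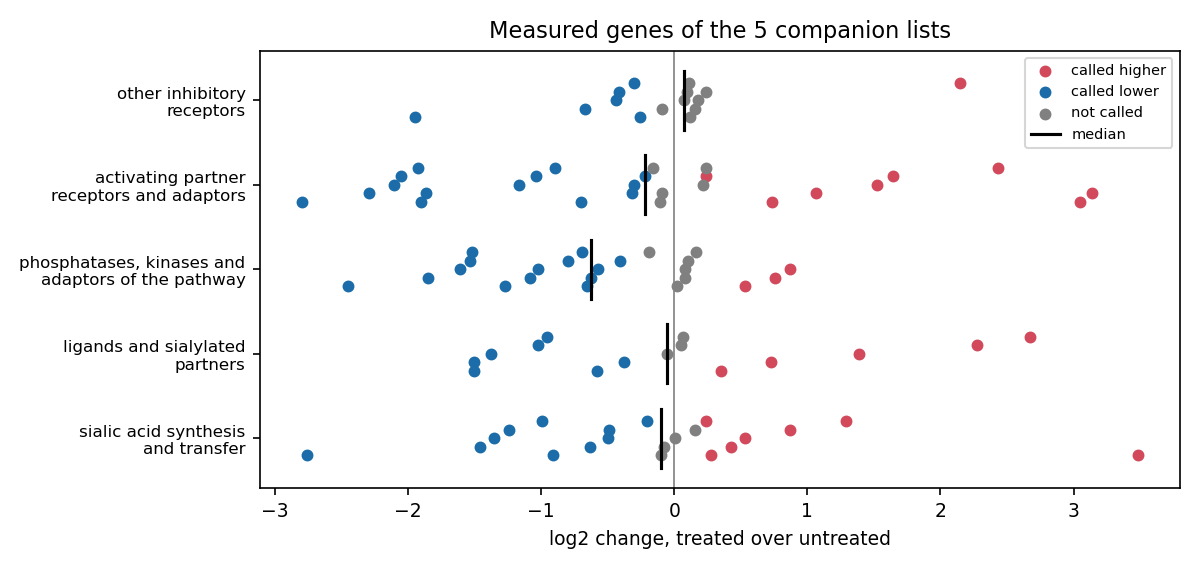
Log2 change of treated over untreated (x axis) for each measured gene of the 5 companion lists, coloured by its limma call, with the list median as a black bar. The medians are 0.07, -0.22, -0.62, -0.05 and -0.10 from top to bottom, against -0.17 for all tested genes; with median centring in place of loess no gene is called, and Cd300e, Dok1, St3gal1 and Neu1 turn negative.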

How the data were processed

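The submitters quantified the Agilent 2-colour arrays in Agilent Feature Extraction 10.7.3.1, per the submitters' processing notes and the file headers. The deposited intensity columns are median pixel brightness of spot and local background, and the processed intensities and the log10 ratio of Cy5 over Cy3 are the scanner software's, per the file headers. The authors' deposited log2 table (processing not given in the sources used here) had array medians of -0.000414, -0.00494 and -0.000642. Across probes it correlated at r = 0.994, 0.990 and 0.992, with slopes of 1.04 to 1.08, with loess ratios of uncorrected signals turned to treated over untreated, which sets its direction and log2 scale, while how it was centred stays unknown.

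Here, median signals were corrected with normexp (offset 50) and normalized with loess in limma 3.58.1 (R 4.3.3), with control spots at weight 0; outlier spots were dropped (323, 303 and 299), none was saturated, and spots of a probe were averaged. Each receptor gene had a ratio on all 3 arrays. Channel levels were further scaled with Aquantile and are open to dye bias, since the orientations were unequal. Accessions were named through a RefSeq table (GRCm38.p6; 27235 of 55681 probes). Kept probes were well above background in at least 3 of 6 readings, and the brightest represented its gene. The 3 ratios were tested against 0 with lmFit and eBayes (prior 6.21, residual 2 degrees of freedom), Benjamini-Hochberg adjusted over 13181 genes. Tested on simulated data of this comparison (13181 genes), the fit recovered 100% of 50 genes at each log2 change of -2, -1, 1 and 2. These changes were large beside the median SE of 0.088, so their recovery was near certain. The simulated noise was independent and normal, without dye, normalization or background error. Smaller changes, such as those of Siglece and Cd33, were not simulated.

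Receptor genes and lists were chosen with earlier results of these data known. Named are all members, up to 4 called genes per list and direction, fixed adaptors, effectors and ligands, and, chosen after values were seen, further relatives of the members, Milr1, Lyn, Syk, Ptpn11, Rasa1 and Pianp. Alternatives covered background, normalization, centring, filter, probe choice, array weights, a dye term and single arrays. A few listed genes are counted but not reported here by name.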

Additional observations from a re-analysis of the deposited data

Results flagged for a closer look

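For Cd300a, the ratios of the dye orientations differed. On replicates 1 and 3, with treated RNA in Cy3, the log2 ratio of treated over untreated was -0.66 and -0.68, and on replicate 2, with treated RNA in Cy5, it was 0.52. The dye coefficient was 0.60 ± 0.075 (limma with a dye term, adjusted p = 0.0355), and 44 of 13181 genes passed that test. With 1 array in the second orientation, the dye and that array cannot be told apart. Among the other 9 members the dye coefficient had an adjusted p of at least 0.554.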

How the results depend on the processing

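Median centring in place of loess called 0 members higher and 0 lower (5 of 10 at an unadjusted limma p under 0.05) and 0 of all genes in either direction (5317 unadjusted); Siglece turned to -0.96 and Cd33 to -0.82. The cause was not tested. In all other settings each member that gave a value kept its sign (Clec12a did not pass the filter on all 6 readings), and Sirpa, Lair1, Cd200r1, Siglec1, Cd300lf and Pilra kept their calls. Without 1 replicate, the members called higher numbered 1 to 2, against 3 on all arrays. The share of falls among called genes was 65.3%, or 51.0% after centring on the tested genes. The counts of genes called at 2-fold or more rose from 896 higher and 1664 lower to 1383 and 2377 with normexp but no added offset and to 1566 and 2790 with the scanner's own ratios. Offset 50 compresses the ratios of dim probes such as that of Clec12a, and leaving out 1 array leaves 1 residual degree of freedom. The fit is itself paired, since each ratio sets the 2 samples of its array against each other.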
